A study of Mus musculus with 10 samples.

Results

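Collagen genes were followed through the cells of embryonic mouse back skin in 10 single-cell RNA-seq libraries. The members were the genes with a symbol made of Col, a number, the letter a and a second number, with Col7a1 and Col17a1 left out, and 42 of the 33243 genes listed in the series met this rule. The rule uses symbols and no measured value. The libraries came from 2 controls (replicates 2 and 3) and 2 MOF cKO samples (replicates 5 and 6) at E15.5, from 2 controls and 2 MOF cKO samples (replicates 1 and 2 of each) at E16.5, and from 1 control and 1 QPC cKO sample at E17.5. MOF cKO skin (MOFfl/fl/K14Cre) carries floxed alleles of the histone acetyltransferase MOF, encoded by Kat8, and QPC cKO skin (QPCfl/fl/K14Cre) carries floxed alleles of Uqcrq, a subunit of mitochondrial complex III. Both are deleted by Krt14-Cre, an epithelial driver, so that fibroblasts, endothelial cells and pericytes are not the cells in which the deletion is made. The study's controls were wild-type or heterozygous littermates on a mixed C57Bl/6J and CD-1 background, and which genotype each control library had was not given in the sources used here. E15.5 MOF cKO replicate 6 was described in the study as mosaic for the loss of MOF.

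Collagens are proteins of the extracellular matrix built from 3 chains wound into a triple helix, and each chain is encoded by its own gene. Fibrillar collagens (types I, III and V in skin) form the dermal fibres, and fibril-associated collagens such as types XII, XIV and XVI bind to the surface of those fibres. Type IV collagen makes the sheet-like network of basement membranes under the epidermis and around blood vessels, type VI forms beaded filaments close to cells, and types XV and XVIII are multiplexins of basement membrane zones. In skin, fibroblasts are known as the main source of the fibrillar chains. The questions here were which of the 42 genes each cell type used, and whether these levels differed in MOF cKO and QPC cKO skin.

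Several chains are encoded as neighbouring pairs, and the promoters of chains whose levels are compared with each other below are shown for that reason. Sequences and coordinates are those of RefSeq on GRCm38.p6, the assembly behind the mm10 name used in the series. Col4a1 and Col4a2, the chains of the common type IV network, start on opposite strands of chromosome 8 with their starts 21 bases apart and the transcripts overlapping in between. The capitals in the stretch chr8:11312801-11312830 (+ strand) run from the first base of Col4a2 to the first base of Col4a1.
Col4a1 and Col4a2 starts: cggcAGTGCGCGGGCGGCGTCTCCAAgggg
Col4a5 and Col4a6, another type IV pair, also start on opposite strands, 1309 bases apart on chromosome X. The 250 bases before the start used by the promoter table are given for both, as chrX:141475169-141475418 (+ strand) for Col4a5 and chrX:141474077-141474326 (− strand) for Col4a6. In these and the next sequences the capitals mark 3 motifs that were searched on both strands. These were the TATA box as TATAAA, the CCAAT box by its own letters, and the GC box as GGGCGG, which reads CCGCCC when it lies on the other strand.
Col4a5: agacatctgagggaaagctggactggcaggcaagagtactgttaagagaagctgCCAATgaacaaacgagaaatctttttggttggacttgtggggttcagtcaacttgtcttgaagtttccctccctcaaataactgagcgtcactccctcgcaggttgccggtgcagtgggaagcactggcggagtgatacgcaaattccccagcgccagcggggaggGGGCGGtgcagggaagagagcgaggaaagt
Col4a6: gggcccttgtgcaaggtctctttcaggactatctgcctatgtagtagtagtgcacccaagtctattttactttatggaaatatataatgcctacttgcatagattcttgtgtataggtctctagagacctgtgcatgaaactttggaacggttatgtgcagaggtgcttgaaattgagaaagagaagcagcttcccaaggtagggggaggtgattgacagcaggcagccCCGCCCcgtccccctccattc
Col1a2 and Col3a1, fibrillar chains whose levels followed each other across fibroblasts, are given as chr6:4505368-4505617 (+ strand) and chr1:45311288-45311537 (+ strand).
Col1a2: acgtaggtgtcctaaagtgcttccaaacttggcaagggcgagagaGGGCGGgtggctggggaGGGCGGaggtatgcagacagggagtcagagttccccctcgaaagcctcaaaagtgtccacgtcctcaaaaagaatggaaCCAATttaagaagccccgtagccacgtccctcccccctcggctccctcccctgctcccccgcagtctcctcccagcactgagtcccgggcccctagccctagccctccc
Col3a1: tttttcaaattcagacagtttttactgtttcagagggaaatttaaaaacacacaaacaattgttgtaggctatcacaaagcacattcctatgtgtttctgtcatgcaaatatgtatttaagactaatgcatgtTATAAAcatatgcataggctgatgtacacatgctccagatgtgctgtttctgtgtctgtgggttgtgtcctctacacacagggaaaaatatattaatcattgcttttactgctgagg
Windows follow the starts of the promoter table, which can differ from those of the gene annotation. The Col1a2 window lies past the annotated start at base 4504814, and the Col4a5 window runs past the annotated start at base 141475385, so that its GC box lies inside the annotated gene. Of the 42 members, 33 had an entry among 32851 promoters, with 36 windows. TATAAA stood in 11.1% of the member windows and in 12.4% of all windows, CCAAT in 30.6% and 33.8%, and GGGCGG in 58.3% and 32.7%. These shares describe letters in the windows and were not tested.

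The cells analysed had more than 1000 but fewer than 6000 genes detected, and less than 10% mitochondrial UMIs (unique molecular identifiers, each standing for 1 captured transcript). Fibroblast cells had at least 1 Pdgfra UMI and fewer than 10 Krt5 and Krt14 UMIs together, epithelial cells had at least 10 of the latter, endothelial cells had at least 2 of Pecam1, Cdh5 and Kdr detected, and pericyte cells had at least 3 Rgs5 UMIs and none of Cdh5. The libraries held 716 to 10653 kept cells with a median of 9600 to 22340 UMIs. The fibroblast gate held 436 to 6030 cells, the epithelial gate 30 to 3069, the endothelial gate 11 to 255 and the pericyte gate 14 to 425. Levels are UMIs per 1e6 UMIs of the gate in a library (CPM). Because 1 UMI marks the 3′ end of 1 transcript, CPM is not scaled by gene length, but the share of transcripts captured can differ between genes and between the library chemistries, which changed with stage. In the epithelial gate Kat8 had 13.0 and 14.0 CPM in controls and 13.0 and 10.0 CPM in MOF cKO at E15.5, and 17.6 and 14.8 CPM against 8.66 and 3.75 CPM at E16.5. Uqcrq had 106 CPM in the E17.5 control and 43.9 CPM in QPC cKO. The epithelial values of E15.5 thus overlapped in the targeted gene, whereas those of E16.5 and E17.5 were lower where the label names the knockout. The Kat8 values of E16.5 MOF cKO epithelial cells rest on a few UMIs each, from 30 and 39 cells. In fibroblast cells Kat8 was also lower in the MOF cKO libraries, with 9.44 and 9.93 against 7.06 and 6.15 CPM at E15.5 and 11.2 and 7.39 against 2.76 and 5.85 CPM at E16.5, and Uqcrq was higher in QPC cKO (67.9 and 119 CPM). The lower Kat8 was therefore not seen in the epithelial gate alone, and these values were not tested. The part of each gene that Cre deletes was not given in the sources used here, so that 3′ UMIs check the labels only in part.

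The gates matched their names by marker levels, with exceptions that touch the values below. The 7 epithelial markers summed to 7826 to 27600 CPM in the epithelial gate. In the E17.5 control, however, 49.8% of epithelial-gate cells (1527 of 3069) had less than 0.2% of their UMIs from Krt5 and Krt14, and 1175 of these had Pdgfra. In E16.5 control replicate 1 this share was 34.2% (91 of 266), against 3.15% to 7.23% in the other controls and 16.7% in QPC cKO. The low-keratin cells of these 2 control libraries had medians of 126 and 65 UMIs of the fibroblast genes Dcn, Lum and Dpt, against 13 and 7 in the other epithelial-gate cells of the same libraries. Epithelial values are therefore also given with a lower limit of 0.2% keratin UMIs. In the endothelial gate 6.67% to 16.7% of cells also met the fibroblast gate, and a stricter gate, with no Pdgfra and fewer than 10 keratin UMIs, is given beside it. Cells with at least 10 keratin UMIs were 21.8% of the endothelial and 30.5% of the pericyte gate in the E17.5 control (3.33% and 3.16% in QPC cKO), 18.2% and 20% in E16.5 control replicate 1, and at most 8% in the other libraries. The pericyte gate also held smooth muscle genes, whose 4 markers summed to 1996 to 8629 CPM there. The libraries of E17.5 shared 1702 cell barcodes, of which 160 were kept cells in the control and 41 in QPC cKO.

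Fibroblast cells carried by far the most collagen transcripts. In the 5 control libraries (in the order E15.5 replicates 2 and 3, E16.5 replicates 1 and 2, and E17.5) collagen made up 2.73%, 2.66%, 2.57%, 2.21% and 6.75% of fibroblast UMIs. The share was 0.920%, 0.819%, 0.574%, 0.542% and 1.19% in pericyte cells and 0.433%, 0.400%, 0.340%, 0.499% and 0.731% in endothelial cells. Fibroblast cells were highest in each of these libraries and pericyte cells were above endothelial cells in each. With no Pdgfra and fewer than 10 keratin UMIs in both vessel gates, the latter order was reversed in E16.5 control replicate 2. There the summed collagen level was 4029 CPM in pericyte and 4628 CPM in endothelial cells, and the other controls kept the order. The epithelial gate ranged from 0.158% in E16.5 control replicate 2 to 0.882% in E16.5 control replicate 1 and 2.94% in the E17.5 control, the libraries with many low-keratin cells. With the keratin limit the summed collagen level of the epithelial gate was 1588, 1420, 1747, 928 and 1578 CPM. Leukocytes (Ptprc and Tyrobp detected, no Pdgfra, fewer than 10 keratin UMIs), which should lack fibrillar collagen, had 0.0542% to 0.0872% in controls.

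**Figure D1:**
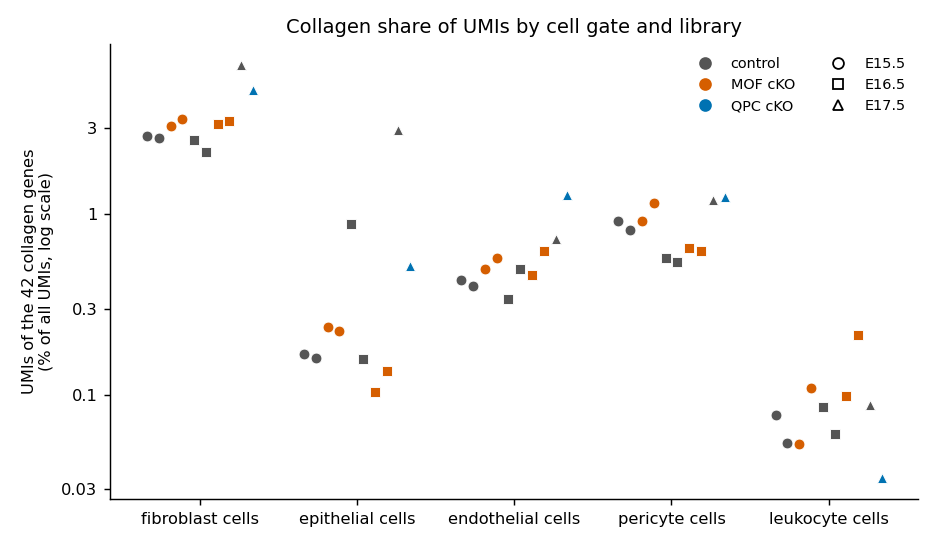
Collagen UMIs as a percent of all UMIs (log axis) in fibroblast, epithelial, endothelial, pericyte and leukocyte cells, with 1 point per library in all 10 libraries. Fibroblast cells lie between 2.21% and 6.75%, and the epithelial points of E16.5 control replicate 1 (0.882%) and of the E17.5 control (2.94%) stand above the other controls of that gate.

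Of the 42 members, 18 reached a mean of 100 CPM over the controls of a stage in at least 1 gate, and 24 did not. By the median over controls, 14 of the 18 were highest in fibroblast cells, 3 in endothelial cells and 1 in pericyte cells. Col5a3, counted there with fibroblast cells, and Col4a2, counted with endothelial cells, were each highest in pericyte cells in 3 of the 5 controls. The gates were compared in 1 edgeR fit of the 5 control libraries with the library as a block, over 12898 genes, of which 32 were members. Between fibroblast and epithelial cells 30 members were called, where 55.6% of all genes were called, and 27 of them were higher in fibroblast cells, where 29.4% of all genes were called higher. Between fibroblast and endothelial cells 27 members were called (47.7% of all genes), 22 of them higher in fibroblast cells (26.7% of all genes). Between fibroblast and pericyte cells 24 were called (35.6% of all genes), 19 of them higher in fibroblast cells (19.2% of all genes). Between endothelial and pericyte cells 20 were called (35.9% of all genes), 5 of them higher in endothelial cells (17.1% of all genes). The members' shares called higher in fibroblast cells were thus well above those of all genes, as was that called higher in pericyte than in endothelial cells (15 members, where 18.7% of all genes were called), and the share called higher in endothelial than in pericyte cells was not. The median log2 fold change of the members was 2.16 for fibroblast over epithelial cells, 3.24 over endothelial cells and 1.42 over pericyte cells, beside medians of -0.001, 0.10 and 0.05 over all genes. The first of these includes the low-keratin cells. In each control the summed collagen level of the epithelial gate was higher with them than with the keratin limit. The other 10 members were too low to be tested.

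**Figure D2:**
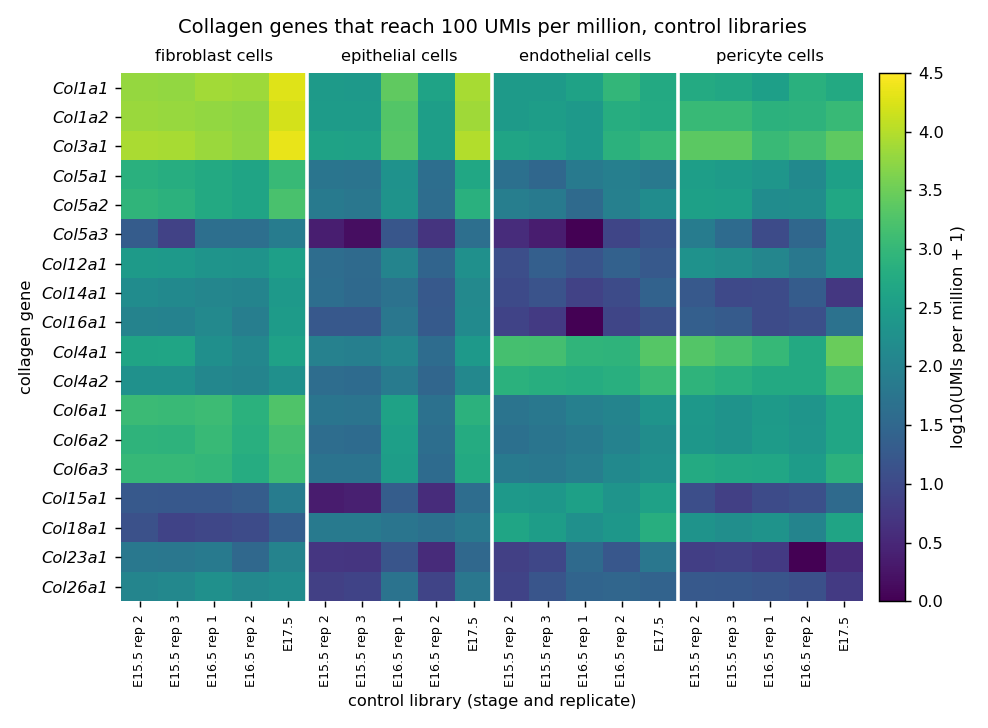
Mean level as log10(CPM + 1) (colour) of the 18 members that reached 100 CPM (rows), in the 4 gates and the 5 control libraries (columns). Col1a1, Col1a2, Col3a1 and the type VI chains are highest in fibroblast columns, Col4a1 and Col4a2 in endothelial and pericyte columns, and Col15a1 in endothelial columns.

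Fibrillar chains made up 83.0% to 90.5% of collagen UMIs in control fibroblast cells. Col1a1 and Col1a2, the chains of type I collagen, the main fibre of the dermis, and Col3a1, the chain of type III collagen of young dermis, were the leading 3. In the controls Col1a1 had 6083, 5926, 7575, 7030 and 19258 CPM in fibroblast cells, Col1a2 6589, 6494, 5986, 5527 and 16530 CPM, and Col3a1 8441, 8274, 6589, 5695 and 22482 CPM. All 3 were more than 2 times as high in the E17.5 control as in the other controls, and stage and chemistry cannot be told apart there. Col1a1 was higher in fibroblast than in endothelial cells by 4.15 ± 0.66 on the log2 scale (SE, 5 libraries; adjusted p = 6.91e-05), and than in pericyte cells by 3.85 ± 0.64 (adjusted p = 0.000189). Against epithelial cells its difference was 2.60 ± 0.63 (adjusted p = 0.00213), with the low-keratin cells included, and it ran from 2.08 to 4.90 over 14 alternatives.

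Epithelial cells held fibrillar transcripts at a few percent of the fibroblast level, as leukocytes did. With the keratin limit, epithelial Col1a1 had 260, 224, 417, 202 and 323 CPM in controls, which is 1.64% to 5.61% of the fibroblast level of the same library. In leukocytes Col1a1 had 153, 120, 251, 208 and 215 CPM. The 2 ranges overlapped, but within a library epithelial cells were above leukocytes in each control except E16.5 control replicate 2. The ratio of Col1a1 to Col1a2 UMIs had medians over the 10 libraries of 1.13 in epithelial cells with the keratin limit, 1.22 in leukocytes and 1.17 in fibroblast cells. In pericyte cells the same ratio had a median of 0.517 (0.444 to 0.896), and Col3a1 stood at a median of 3.75 times Col1a1 (1.94 to 4.82) where fibroblast cells had 1.17 (0.731 to 1.40). Pericyte cells therefore held fibrillar transcripts in proportions unlike those of fibroblast cells, with 565, 493, 352, 728 and 544 CPM of Col1a1 and 2309, 2292, 1120, 1410 and 2460 CPM of Col3a1 in controls. These levels include cells that also met the fibroblast gate, which were 7.52%, 7.54%, 6.67%, 16.7% and 2.30% of the pericyte gate.

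The type V chains, minor partners that fibrillar collagens are assembled with, followed the same order at a lower level. Col5a1 had 709, 642, 544, 427 and 1080 CPM and Col5a2 869, 793, 538, 428 and 1587 CPM in control fibroblast cells. Both were higher there than in endothelial cells (3.57 ± 0.48 and 3.19 ± 0.45, log2 ± SE) and than in pericyte cells (1.31 ± 0.41 and 1.44 ± 0.41). Col5a3 differed from them. It had 75.3, 37.1, 9.78, 30.7 and 177 CPM in pericyte cells beside 19.4, 6.82, 42.1, 43.4 and 77.0 CPM in fibroblast cells, and the gates were not separated (-1.35 ± 0.54 for fibroblast over pericyte cells, adjusted p = 0.0631). Col27a1, a fibrillar chain best known from cartilage, was not separated by the test between fibroblast cells and the whole epithelial gate. It had 51.0, 51.6, 46.7, 62.4 and 31.0 CPM in epithelial and 35.4, 34.7, 47.6, 37.8 and 49.2 CPM in fibroblast cells (log2 -0.31 ± 0.22 for fibroblast over epithelial, adjusted p = 0.255), and it was higher in fibroblast cells than in endothelial cells by 3.29 ± 0.37. Epithelial cells were lower only in E16.5 control replicate 1 and the E17.5 control, the libraries with many low-keratin cells. In the other controls they were higher.

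Fibrillar transcripts varied together from fibroblast to fibroblast. In fibroblast cells thinned to 5000 UMIs each, the correlation of Col1a1 with Col1a2 over cells had a median of 0.90 over the 10 libraries (0.87 to 0.95, 418 to 5992 cells each). It was 0.85 (0.79 to 0.93) for Col1a1 with Col3a1 and 0.54 (0.51 to 0.72) with Col5a1. The type VI chain Col6a1 followed Col1a1 less closely (0.29, from 0.11 to 0.48), and Col4a1 had a median of 0.03 (-0.42 to 0.13). Col23a1, a transmembrane collagen, ran the other way, with -0.38 (-0.60 to -0.12) against Col1a1. The cells of a library share its preparation and depth, and these values are descriptions.

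The most abundant fibril-associated chains, Col12a1, Col14a1 and Col16a1, were highest in fibroblast cells among the 4 gates in each control. Col12a1, which decorates type I fibrils, had 286, 269, 215, 202 and 345 CPM in control fibroblast cells and 197, 165, 117, 61.3 and 181 CPM in pericyte cells. The difference of these gates (0.88 ± 0.34, adjusted p = 0.0544) missed the threshold, whereas Col12a1 was higher in fibroblast than in endothelial cells by 3.88 ± 0.42. Col14a1, a relative of Col12a1 that also binds fibrils, had 155, 133, 114, 106 and 263 CPM in fibroblast cells and 17.2, 8.87, 9.78, 19.2 and 4.27 CPM in pericyte cells (log2 4.0 ± 0.40, adjusted p = 1.28e-06). Col16a1 had 100, 96.6, 131, 82.9 and 295 CPM in fibroblast cells and 7.14, 4.83, 0, 7.69 and 11.8 CPM in endothelial cells (4.19 ± 0.35). Col14a1 and Col16a1 were thus called higher in fibroblast cells than in each of the other gates, and Col12a1 than in 2 of the 3.

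Type IV chains divided between vessels and epithelium. Col4a1 had 1506, 1433, 873, 856 and 2064 CPM in control endothelial cells and 1998, 1578, 1032, 533 and 2999 CPM in pericyte cells, beside 420, 439, 175, 118 and 373 CPM in fibroblast cells. Col4a2 followed with 745, 660, 612, 685 and 1119 CPM in endothelial cells and 844, 682, 543, 533 and 1334 CPM in pericyte cells. Both vessel gates lay above fibroblast cells in each library. Fibroblast cells were lower than endothelial cells by -2.16 ± 0.24 (Col4a1, adjusted p = 1.58e-06) and -2.21 ± 0.22 (Col4a2, adjusted p = 3.56e-07), and lower than pericyte cells by -2.28 ± 0.24 and -2.20 ± 0.22. Endothelial and pericyte cells did not differ beyond their spread in Col4a1 (-0.12 ± 0.23, adjusted p = 0.746) or Col4a2 (0.01 ± 0.21, adjusted p = 0.988). The ratio of Col4a1 to Col4a2 UMIs, the pair whose starts lie 21 bases apart, varied between libraries. It had medians of 2.06 (1.13 to 2.46) in fibroblast cells, 1.84 (1.25 to 2.21) in endothelial cells and 2.24 (1 to 2.37) in pericyte cells. E16.5 control replicate 2 had the lowest value in each of these gates.

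The other expressed type IV pair was epithelial. Col4a5 and Col4a6, chains of a second network found under the epidermis, had 40.6, 36.4, 14.8, 14.7 and 29.3 CPM and 16.6, 14.1, 5.97, 9.63 and 9.91 CPM in control epithelial cells. In fibroblast cells Col4a5 had 6.96, 7.65, 3.46, 2.89 and 11.7 CPM. Both genes were higher in epithelial than in fibroblast cells in all 5 controls, and fibroblast cells were lower by -2.17 ± 0.26 for Col4a5 (adjusted p = 3.88e-06) and by -3.59 ± 0.35 for Col4a6 (adjusted p = 4.39e-07). The keratin limit moved Col4a5 to 41.5, 37.3, 22.3, 15.8 and 47.9 CPM, so that its level was higher in each control without the low-keratin cells. Col4a1 had 91.3, 84.9, 45.9, 29.6 and 82.5 CPM with this limit, 19.4% to 26.5% of the fibroblast level. Col4a3 and Col4a4, the pair known from kidney, did not pass 1.07 CPM as a stage mean in any gate.

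**Figure D3:**
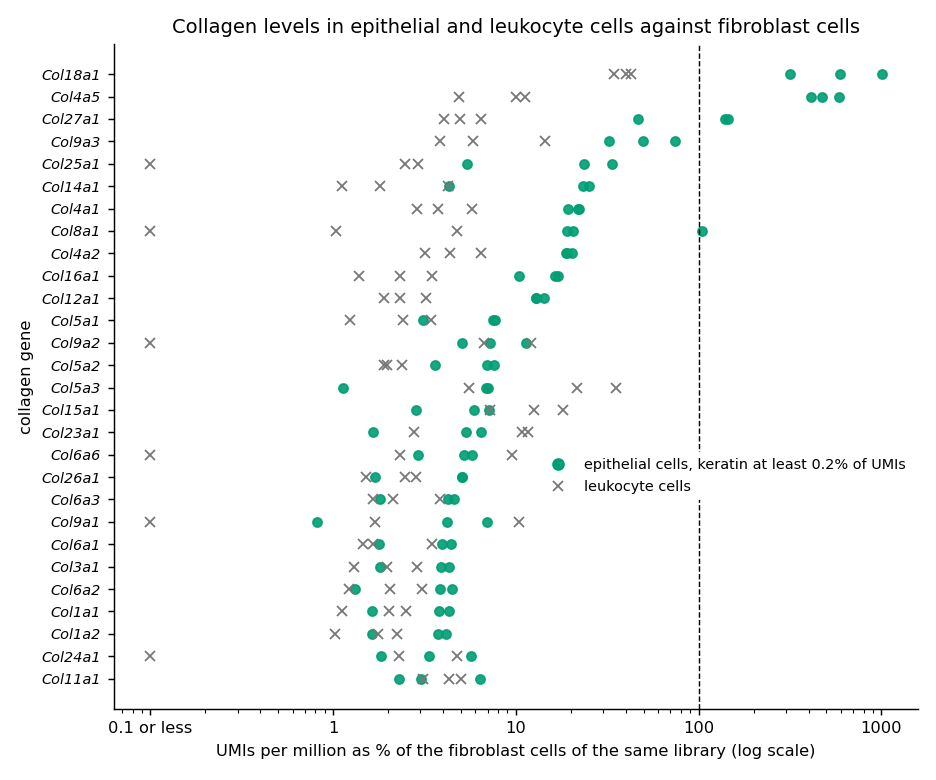
Level in the epithelial gate (with at least 0.2% keratin UMIs) and in leukocytes as a percent of the fibroblast level of the same library (log axis), for 28 members and the 3 control libraries of E15.5 and E17.5. Col1a1, Col1a2 and Col3a1 lie at a few percent in both cell types, while Col4a5 and Col18a1 lie above 100% in epithelial cells.

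Type VI chains were high in fibroblast cells and moderate in pericyte cells. Col6a1 had 1176, 1124, 1238, 739 and 1814 CPM, Col6a2 851, 812, 1067, 691 and 1420 CPM, and Col6a3 1039, 1017, 963, 609 and 1290 CPM in control fibroblast cells. In pericyte cells Col6a1 had 247, 203, 284, 218 and 450 CPM and Col6a3 559, 492, 464, 307 and 767 CPM. Col6a1 and Col6a2, which lie one after the other on chromosome 10, were higher in fibroblast than in pericyte cells (2.22 ± 0.42 and 1.87 ± 0.42), but the difference of Col6a3 was 1.0 ± 0.43 and missed the threshold (adjusted p = 0.0846). The ratio of Col6a1 to Col6a2 had a median of 1.25 (1.03 to 1.42) in fibroblast and of 0.980 (0.680 to 1.07) in pericyte cells. Type VI chains were 6.75% to 12.8% of collagen UMIs in control fibroblast cells and 11% to 18.2% in pericyte cells.

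The multiplexins were highest in endothelial cells. Col18a1, the source of endostatin, had 439, 325, 179, 239 and 652 CPM in endothelial cells, 205, 163, 200, 107 and 419 CPM in pericyte cells, 71.9, 71.7, 54.2, 45.0 and 65.0 CPM in epithelial cells and 12.1, 6.91, 7.94, 9.53 and 21.5 CPM in fibroblast cells. The 4 gates kept this order in 4 of the 5 controls, with pericyte above endothelial cells in E16.5 control replicate 1. Fibroblast cells were lower than endothelial cells by -4.93 ± 0.27 (adjusted p = 5.02e-10), than pericyte cells by -4.16 ± 0.27 and than epithelial cells by -2.59 ± 0.25, and endothelial cells were higher than pericyte cells by 0.77 ± 0.24 (adjusted p = 0.0208), a call lost under 5 of 14 alternatives, among them the fits without E15.5 control replicate 2 (0.136), E15.5 control replicate 3 (0.0707) and E16.5 control replicate 2 (0.0646). Col15a1, the related chain of vessel basement membranes, was mostly endothelial, with 276, 237, 357, 213 and 370 CPM there and 17.3, 16.4, 16.1, 20.6 and 75.4 CPM in fibroblast cells (-3.60 ± 0.51). Fibroblast cells were above epithelial cells in Col15a1 by 1.85 ± 0.52 (adjusted p = 0.00594). Endothelial cells exceeded pericyte cells in Col15a1 by 4.60 ± 0.63 on the log2 scale.

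Transmembrane and other collagens were less abundant. Col23a1 had 62.9, 59.4, 66.6, 32.6 and 104 CPM and Col26a1 111, 125, 182, 125 and 151 CPM in control fibroblast cells. Both were called higher there than in each of the other gates, Col23a1 by 2.96 ± 0.39 over epithelial and 3.82 ± 0.53 over pericyte cells, and Col26a1 by 2.92 ± 0.56 over endothelial cells. Col13a1, a transmembrane collagen of cell junctions, had 8.04, 3.95, 0, 5.50 and 29.9 CPM in endothelial and 1.05, 0.687, 2.65, 0.750 and 8.69 CPM in fibroblast cells (-2.24 ± 0.44), and was listed at 0 in E16.5 control replicate 1, which had only 11 endothelial cells. Col8a1, a short chain of the hexagonal network, had 51.1, 49.8, 31.8, 29.7 and 14.8 CPM in fibroblast cells and 29.6, 27.3, 29.3, 23.0 and 22.2 CPM in pericyte cells (0.42 ± 0.29, adjusted p = 0.285).

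The 24 members below 100 CPM had highest stage means between 0.0614 CPM (Col10a1) and 54.6 CPM (Col27a1). Of these, 11 were highest in fibroblast, 6 in pericyte, 4 in epithelial and 3 in endothelial cells by the median over controls. Col10a1 was tied between the gates and was counted with fibroblast cells by the order of the gates. The places of Col11a2 and Col28a1 (endothelial) and of Col4a3 (pericyte) rest on at most 3 UMIs in a control library. Pericyte cells led in Col11a1, with 42.3, 40.6, 29.3, 57.5 and 33.6 CPM beside 22.6, 20.8, 9.77, 10.7 and 20 CPM in fibroblast cells, although the test did not separate them (-1.18 ± 0.54, adjusted p = 0.101). They were called higher than fibroblast cells in Col22a1, with 9.98, 5.13, 4.89, 3.83 and 5.12 CPM (-3.80 ± 0.62), and in Col25a1, with 14.4, 15.4, 14.7 and 3.83 CPM at E15.5 and E16.5 (-1.04 ± 0.33). The E16.5 pericyte values rest on 1 UMI in each control for Col22a1 and on 3 and 1 UMIs for Col25a1. The call of Col25a1 was lost under 5 of 14 alternatives, among them the fits without E15.5 control replicate 2 (0.0551), E15.5 control replicate 3 (0.0861) and E16.5 control replicate 1 (0.0534). Col6a6, Col9a1, Col9a2, Col19a1 and Col24a1 were called higher in fibroblast than in epithelial cells, with 7.44, 5.43, 12.4, 15.7 and 36.8 CPM of Col6a6. Col19a1 had no UMI in the pericyte gate of any library, and the log2 differences of 8.83 and 7.22 that the fit gave it against fibroblast and endothelial cells depend on the prior count and are no measure of size. Col9a3 had 6.01, 5.95, 4.28, 4.60 and 7.41 CPM in fibroblast cells, not apart from epithelial cells (0.27 ± 0.32). The cartilage chains Col2a1 and Col10a1 were no higher than 1.02 CPM in the 4 gates of any library.

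In MOF cKO skin at E15.5, no member was called in fibroblast, epithelial or pericyte cells, and 3 were called higher in endothelial cells. In fibroblast cells 0 of 38 members were called by edgeR, as were 0% of all 15866 genes. At an unadjusted p under 0.05 there were 10 members (14.1% of all genes), and DESeq2 called 7 (2.29% of all genes). The smallest p-values belonged to Col9a3, with 6.01 and 5.95 CPM in controls and 14.2 and 13.4 CPM in MOF cKO (1.20 ± 0.09, adjusted p = 0.21), Col27a1 (35.4 and 34.7 against 50.6 and 48.6 CPM, 0.50 ± 0.07) and Col16a1 (100 and 96.6 against 120 and 126 CPM, 0.31 ± 0.05). In each of these the groups did not overlap, without reaching the threshold. Col1a1 had 6083 and 5926 CPM in controls and 7102 and 7712 CPM in MOF cKO. The median log2 fold change was 0.09 over the members and 0.01 over all genes, and 26 of the 38 were above 0.

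In endothelial cells at E15.5 the members called were Col1a1, Col1a2 and Col3a1, 3 of 21 tested (0.077% of all genes were called higher and 0.0963% in either direction). At an unadjusted p under 0.05 there were 14 members (9.88% of all genes), and DESeq2 called 5 (0.241% of all genes). Col1a1 had 280 and 284 CPM in controls and 598 and 705 CPM in MOF cKO (1.25 ± 0.10, adjusted p = 0.00468). Col1a2 had 284 and 323 CPM against 710 and 716 CPM (1.28 ± 0.11, adjusted p = 0.00468), and Col3a1 429 and 374 CPM against 769 and 934 CPM (1.13 ± 0.11, adjusted p = 0.0129). The network chain Col4a1, at 1506 and 1433 CPM against 1327 and 1429 CPM, did not share this pattern. The 6 fibroblast markers moved with these genes, at 246 and 239 CPM in controls and 386 and 471 CPM in MOF cKO, as did the share of endothelial-gate cells that also met the fibroblast gate (7.2% and 8.7% against 10.2% and 14.5%). In the stricter gate, without Pdgfra, Col1a1 had 105 and 270 CPM in controls and 106 and 164 CPM in MOF cKO, and the 3 log2 fold changes were -0.45, -0.57 and -0.093 with no member called. All 3 calls were also lost without MOF cKO replicate 6, the mosaic sample (adjusted p = 0.316, 0.316 and 0.417), and that of Col3a1 with thinned gates (0.0803). The next 3 members were Col5a1 (0.98 ± 0.17, adjusted p = 0.105), Col6a1 (1.05 ± 0.23, 0.199) and Col13a1 (-2.12 ± 0.58, 0.287).

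Epithelial cells, in which Krt14-Cre acts, had 0 of 32 members called at E15.5, beside 0% of all genes, while 14 members had an unadjusted p under 0.05 (9.3% of all genes) and DESeq2 called 3 (0.957% of all genes). The leading members were the fibrillar chains. Col1a2, with 0.91 ± 0.17, Col3a1 (0.78 ± 0.15) and Col1a1 (278 and 268 CPM against 479 and 423 CPM, 0.87 ± 0.19) had adjusted p-values of 0.503. Cells with Pdgfra moved with genotype in this gate, at 138 of 2635 and 173 of 2896 cells in controls and 106 of 1061 and 140 of 1648 cells in MOF cKO. The summed collagen level was 1669 and 1601 CPM in controls and 2375 and 2256 CPM in MOF cKO. In a stricter gate, with no Pdgfra, Pecam1, Cdh5 or Kdr, it was 876 and 810 against 1066 and 1049 CPM. Over 12 alternatives, this gate among them, the log2 fold change of Col1a1 ran from 0.62 to 1.08. Beyond this, the part of cells with Pdgfra was not tested. Without MOF cKO replicate 6, the mosaic sample, the test called 20 members and 7015 genes from 1 remaining knockout library. The pericyte gate had 0 of 25 members called beside 0.0527% of all genes, and 10 had an unadjusted p under 0.05 (10.3% of all genes) while DESeq2 called 2 (0.22% of all genes). Col1a1 had 565 and 493 CPM in control pericyte cells and 775 and 995 CPM in MOF cKO (0.79 ± 0.12, adjusted p = 0.0796), Col1a2 0.59 ± 0.10 (0.13) and Col8a1 0.62 ± 0.13 (0.19). The fibroblast markers in this gate were 461 and 490 CPM in controls and 677 and 662 CPM in MOF cKO.

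At E16.5 3 of 30 members were called higher in fibroblast cells of MOF cKO skin and none lower, where 2.58% of all 12323 genes were called higher and 4.06% in either direction. Col8a1 had 31.8 and 29.7 CPM in controls and 145 and 80.1 CPM in MOF cKO (2.02 ± 0.33, adjusted p = 0.039). Col12a1 had 215 and 202 CPM against 453 and 370 CPM (1.13 ± 0.18, adjusted p = 0.039). Col18a1, low in these cells, had 7.94 and 9.53 CPM against 25 and 19 CPM (1.44 ± 0.26, adjusted p = 0.0481). In each of the 3 both knockout libraries exceeded both controls. Scaled by library size alone, 362 of 798 called genes were higher, in place of 318 of 500, and Col9a1 was called lower. The calls were sensitive to the libraries, since leaving out either control removed all 3, with adjusted p-values of 0.101 to 0.159, and leaving out MOF cKO replicate 1 removed Col12a1 (0.170) and Col18a1 (0.163). Col18a1 also missed the threshold with DESeq2's size factors (0.0515), with thinned gates (0.0619) and with the replicate number as a block (0.0509), and was called under 7 of 13 alternatives.

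The next members were Col9a1, at 10.4 and 10.6 CPM in controls and 3.73 and 2.26 CPM in MOF cKO (-1.71 ± 0.34, adjusted p = 0.0548), Col27a1, at 47.6 and 37.8 against 63.1 and 60.4 CPM (0.68 ± 0.14, 0.0563), and Col23a1, at 66.6 and 32.6 against 19.8 and 19.9 CPM (-1.14 ± 0.29, 0.0862). The chains of types I and III missed the threshold. Col1a1 had 7575 and 7030 CPM against 10435 and 10491 CPM (0.66 ± 0.17, adjusted p = 0.0925), Col1a2 5986 and 5527 CPM against 7789 and 8322 CPM (0.63 ± 0.17, adjusted p = 0.0969) and Col3a1 6589 and 5695 CPM against 7630 and 8228 CPM (0.51, adjusted p = 0.14). The median over the members was 0.51 and that over all genes 0.01, with 27 of 30 members above 0. At an unadjusted p under 0.05 there were 15 (24.4% of all genes), and DESeq2 called 7 (6.55% of all genes). Other cell markers moved with the genotype in this gate. The 6 leukocyte markers, none of them at 0, summed to 41.1 and 34.8 CPM in controls and 217 and 186 CPM in MOF cKO, the 6 myogenic markers to 15.1 and 7.92 against 49.5 and 47.7 CPM, and the 7 epithelial markers to 620 and 353 against 194 and 110 CPM. For the cell types with high Col18a1, the 7 endothelial markers had 24.8 and 41.7 CPM against 89.9 and 36.1 CPM, and the 7 pericyte markers 107 and 108 CPM against 108 and 149 CPM. With strict gates Col8a1, Col12a1 and Col18a1 kept their calls. In that fit 3 members were called higher and 1 lower. Beyond this, the part of cells with other markers in the result was not tested.

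**Figure D4:**
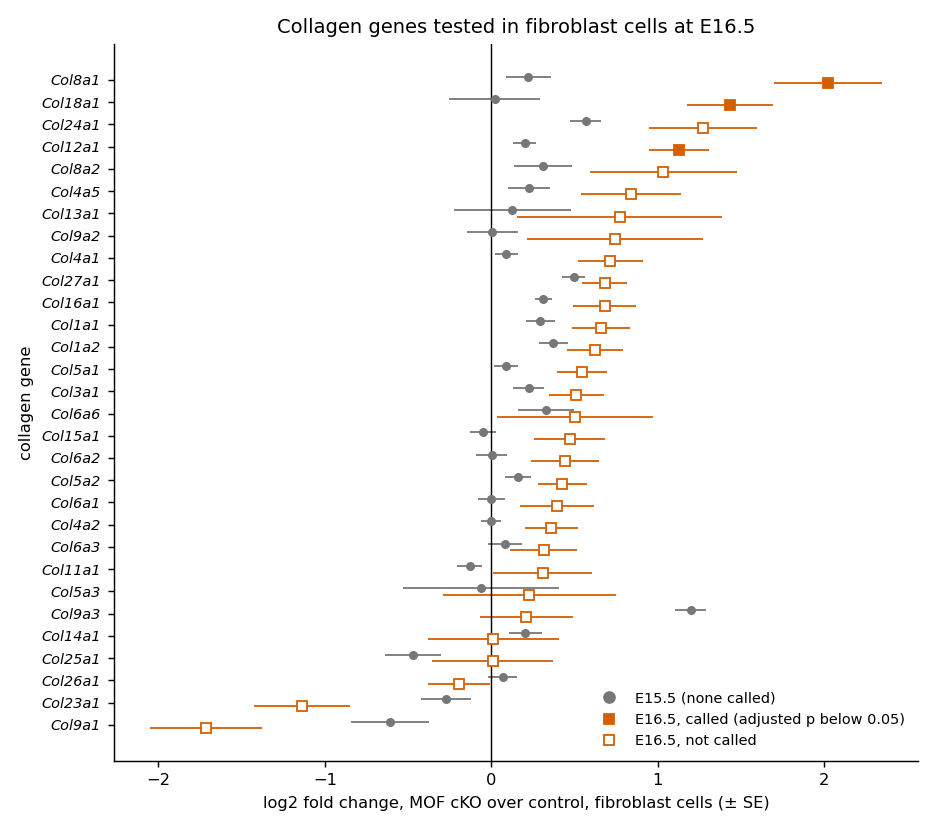
Log2 fold change of MOF cKO over control in fibroblast cells with its SE (bars), at E15.5 and at E16.5, for the 30 members tested at E16.5. Most E16.5 points lie above 0, with Col8a1 (2.02), Col18a1 (1.44) and Col12a1 (1.13) called, and Col9a1 (-1.71) and Col23a1 (-1.14) on the other side without a call.

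Epithelial cells of E16.5 MOF cKO were few (30 and 39 cells) and had 0 of 21 members called by edgeR, where 5.82% of all genes were called. Of the 578 genes called 465 were higher, but 263 of 812 with library sizes alone, a scaling under which the middle gene of those tested had a log2 fold change of -0.71 in place of -0.11. At an unadjusted p under 0.05 there were 4 members (28.1% of all genes), and DESeq2 called 1 (8.69% of all genes). Col18a1 had 54.2 and 45.0 CPM in controls and 118 and 71.2 CPM in MOF cKO (1.54 ± 0.36, adjusted p = 0.0574). The log2 fold change of Col3a1 was -1.82 ± 0.72 (adjusted p = 0.162) in the whole gate, with the low-keratin cells of control replicate 1, and 0.36 with the keratin limit. Col9a3 was at 0 in both knockout libraries. The 6 fibroblast markers in the epithelial gate had 2572 and 1130 CPM in controls and 291 and 361 CPM in MOF cKO.

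In endothelial cells at E16.5 0 of 14 members were called by edgeR and 0 by DESeq2, where they called 4.94% and 2.52% of all genes, and 3 members had an unadjusted p under 0.05 (16.1% of all genes). Col12a1 was at 13.7 and 24.2 CPM in controls and at 79.8 and 45.7 CPM in MOF cKO (1.66 ± 0.45, adjusted p = 0.0802), Col26a1 at -1.69 ± 0.49 (0.101) and Col1a2 at 0.96 ± 0.42 (0.3). In pericyte cells 0 of 13 members were called by either tool, beside 0% of all 3814 genes with edgeR and 0.0524% with DESeq2, and 4 members had an unadjusted p under 0.05 (7.45% of all genes). Col8a1 led there as it did in fibroblast cells, with 29.3 and 23.0 CPM against 133 and 104 CPM (2.35 ± 0.38, adjusted p = 0.211), followed by Col18a1 (1.05 ± 0.32, 0.592) and Col6a3 (0.84 ± 0.29, 0.658). These gates rested on 11 to 60 endothelial and 14 to 37 pericyte cells a library.

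Whether the effect of MOF loss differed between E15.5 and E16.5 was tested as an interaction of stage and genotype. No member was called by edgeR among 38 in fibroblast, 30 in epithelial, 22 in endothelial and 24 in pericyte cells, where 0.0549%, 0.11%, 0.858% and 0% of all genes were called. At an unadjusted p under 0.05 there were 8, 9, 5 and 6 members (18.1%, 16.3%, 13.6% and 6.82% of all genes), and DESeq2 called 7, 2, 1 and 0 (5.92%, 4.92%, 1.28% and 0.245% of all genes). In fibroblast cells the smallest p-values were those of Col12a1 (0.91 ± 0.19, adjusted p = 0.0825), Col8a1 (1.78 ± 0.40, 0.0926) and Col9a3 (-1.01 ± 0.23, 0.0927). Col8a1 had 51.1 and 49.8 CPM in E15.5 controls and 65.8 and 52.2 CPM in MOF cKO of that stage, a smaller gap than at E16.5 whose difference did not pass the threshold.

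The machinery that makes collagen was described with lists of genes. Enzymes of modification and folding, such as prolyl hydroxylases and the chaperone Serpinh1, were higher in control fibroblast than in epithelial cells in 17 of 18 genes and lower in 1, higher than in endothelial cells in 15 and than in pericyte cells in 14, where 29.4%, 26.7% and 19.2% of all genes were higher. Genes of procollagen processing and cross-linking were higher than in epithelial cells in 9 of 9 tested, and fibril-associated proteoglycans and glycoproteins in 15 of 15. Of the modification list no gene was called in any MOF cKO comparison. At E16.5 in MOF cKO fibroblast cells, where 2.58% of all genes were called higher, 1 of 10 processing genes was higher, Adamts2, which trims procollagen ends (95.5 and 72.1 against 148 and 150 CPM, 0.98 ± 0.14, adjusted p = 0.0361), and 1 of 15 proteoglycans, Bgn (506 and 363 against 990 and 855 CPM, 1.24 ± 0.19, adjusted p = 0.0384). Of 11 genes of the TGF-beta pathway, known for driving collagen expression, 2 were higher. These were Tgfb2 (16.9 and 19.1 against 39.6 and 59.3 CPM, 1.58 ± 0.22) and Tgfbr3 (85.1 and 60.1 against 162 and 135 CPM, 1.19 ± 0.19). Each of these 4 calls was lost when either control was left out. None of the 6 receptors or 7 degradation genes was called in these cells.

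In epithelial cells of the same stage Tgfb2 was lower in MOF cKO, with 37.1 and 33.5 CPM in controls and 0 and 1.25 CPM in MOF cKO (adjusted p = 0.0199). Ccn2, a target of the pathway, had 4.41 and 2.24 against 26.0 and 23.7 CPM (3.55 ± 0.46) and Smad7, its inhibitor, was higher by 1.93 ± 0.41. Ddr1, a collagen receptor, was higher (48.8 and 31.8 against 76.2 and 66.2 CPM, 1.45 ± 0.30), as was Mmp9, a gelatinase that cuts type IV collagen (0 and 0.396 against 39.8 and 16.2 CPM). The proteoglycan Dcn, a fibroblast marker, was lower (1311 and 927 against 203 and 259 CPM, -1.67 ± 0.30), and the fibroblast markers of this gate moved with it. In endothelial cells Postn (55 and 53.9 against 136 and 167 CPM) and Timp3 (165 and 152 against 273 and 320 CPM) were higher at E16.5, and Dcn at E15.5 (136 and 126 against 226 and 238 CPM, 0.87 ± 0.10), where the fibroblast markers of the gate were higher as well and the stricter gate gave Dcn a log2 fold change of -1.01 (adjusted p = 0.234). In the E16.5 endothelial gate 9.09% and 6.67% of control and 16% and 11.5% of MOF cKO cells also met the fibroblast gate, and the log2 fold change of Postn, 1.65, became 1.3 with the stricter gate (adjusted p = 0.164) and 0.71 with thinned gates (0.467). With DESeq2 Postn and Timp3 were not called (adjusted p = 0.0875 and 0.314). Over the 13 alternatives Postn lost its call under 3, Timp3 and Smad7 under 7 each, and Ddr1 under 8.

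At E17.5 there was 1 library of each genotype, so that values are given without a test and their intervals (95%, exact Poisson) cover counting error only. Of 31 members with at least 100 UMIs in either library, 11 were higher and 17 lower in QPC cKO fibroblast cells with intervals apart, where 40.5% of all genes were apart and higher and 55.6% apart in either direction. The main fibrillar chains were lower. Col1a1 went from 19258 to 13247 CPM (ratio 0.688, 0.686 to 0.690), Col1a2 from 16530 to 11197 CPM (0.677) and Col3a1 from 22482 to 15588 CPM (0.693). Col12a1 (0.736), Col14a1 (0.55), Col5a3 (0.568) and Col6a6 (0.551) were lower as well. The summed collagen level was 67536 CPM in the control, the highest fibroblast value of the series, and 49037 CPM in QPC cKO. Both lay above the 8 libraries of E15.5 and E16.5 (22122 to 33572 CPM).

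Other members were higher in QPC cKO fibroblast cells. The largest ratio was that of Col8a1, from 14.8 to 39.3 CPM (2.66, 2.41 to 2.93), followed by Col19a1 (2.60, 2.08 to 3.28) and Col13a1 (2.23, 1.96 to 2.55). Col26a1 went from 151 to 263 CPM (1.73), Col11a1 from 20 to 34.4 CPM and Col23a1 from 104 to 176 CPM (1.70). Of the type IV chains Col4a1 was higher at 1.31 and Col4a2 at 1.27, while Col4a5 had a ratio of 0.896 with overlapping intervals, and Col6a3 was higher at 1.23. The median ratio over the 31 members was 0.896 and that over all genes 1.10.

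In the epithelial gate the ratios depended on the low-keratin cells of the control. In the whole gate 3 of 33 members were higher and 25 lower with intervals apart, where 29% of all genes were apart and higher and 62.4% apart, and Col1a1 had 8303 CPM in the control and 1291 CPM in QPC cKO (0.155). With the keratin limit 6 of 19 were higher and 8 lower, where 13.8% of all genes were apart and higher and 38.7% apart, the median ratio was 0.960 as over all genes (0.961), and Col1a1 had 323 and 154 CPM (0.477, 0.459 to 0.495). Col1a2 (0.508) and Col3a1 (0.534) stayed below 1, and Col4a1 (1.33), Col4a2 (1.39) and Col14a1 (1.79) were above it. Lower fibrillar levels in QPC cKO were not particular to this gate. In leukocytes, which should lack fibrillar collagen, the fibrillar chains summed to 730 CPM in the control and 284 CPM in QPC cKO. The epithelial chains Col4a5 (47.9 and 47.6 CPM) and Col18a1 (72.4 and 73.0 CPM) had ratios of 0.992 and 1.01, with overlapping intervals.

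In endothelial cells at E17.5 8 of 12 members were higher in QPC cKO and none lower with intervals apart, where 9.15% of all genes were apart and higher and 22.3% apart. Col1a1 had 537 CPM in the control and 2134 CPM in QPC cKO (3.97, 3.60 to 4.38), Col1a2 552 and 1905 CPM (3.45) and Col3a1 1030 and 2652 CPM (2.57). The vessel collagens Col4a1 (0.954), Col4a2 (0.966), Col15a1 (0.880) and Col18a1 (0.876) had overlapping intervals. The fibroblast markers in this gate were 281 CPM in the control and 751 CPM in QPC cKO, and in the stricter gate Col1a1 had 139 and 144 CPM (1.03) while Col15a1 had a ratio of 0.771. Of the members 3 of 9 were higher and 1 lower in that gate (270 of 1265 genes apart), and with thinned gates none of 11 was higher and 4 were lower (334 of 1515 genes apart). In pericyte cells 4 of 17 members were higher and none lower, where 9.42% of all genes were apart and higher and 21.3% apart, and these 4 were Col18a1 (1.16), Col6a1 (1.13), Col6a2 (1.12) and Col3a1 (1.08). With the stricter gate, which drops the keratin-positive cells that were more frequent in the control, 8 of 15 were higher and 1 lower (1005 of 4889 genes apart), but with thinned gates 2 of 16 were higher and 3 lower (1050 of 5027 genes apart).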

How the data were processed

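The deposited tables held UMI counts per gene and cell barcode, which the authors made with Cell Ranger and did not normalize. The submitters' processing notes name Cell Ranger 1.3.1 and 6.1.2 and the mm10 build, and which version was used for which stage was not given in the sources used here. Total counts per library ranged from 13609345 to 203392303 UMIs. The E16.5 libraries list 27998 genes and the others 32285. The v2 chemistry at E16.5 and later chemistries at E15.5 and E17.5 changed together with stage. Where a gene pair overlaps, as Col4a1 and Col4a2 do at their starts, 3′ counting reads the far ends of the transcripts.

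Counts of kept cells were summed per sample and gate with Python 3.11.15 (numpy 2.4.6, scipy 1.17.1, pandas 2.3.3), and tested with edgeR 4.0.16 in R 4.3.3 (filterByExpr, TMM, quasi-likelihood test, Benjamini-Hochberg adjustment over all genes tested, threshold 0.05), which had been tested on simulated data. There, of genes changed 2-fold, the E16.5 epithelial, endothelial and pericyte fits recovered 0.526%, 3.03% and 6.21%. The interaction in these cells recovered 0%, 2.07% and 5.13%. Recovery was 25.4% in E15.5 epithelial cells, 30.2% in the fibroblast interaction and 39.7% in E16.5 fibroblast cells. A count of 0, or a low count, in these fits therefore does not show that levels were alike. E15.5 and E16.5 were fitted alone with 2 samples per genotype, the interaction over 8 samples, and the gates over the 5 controls with the sample as a block. The study made the E15.5 and E16.5 libraries from pairs of control and MOF cKO skin samples, and p-values measure the spread between these samples. At E17.5, with 1 library per group, CPM, exact Poisson intervals and their ratio were given without a test. No doublet caller was run, and cells could meet more than 1 gate. Alternatives were DESeq2 1.42.0, other scaling, no count filter, other gates, a 5% mitochondrial limit and leaving out each sample. The 0.2% keratin limit, the removal of shared barcodes and a crossed pairing were chosen after seeing the data. Figures were drawn with matplotlib 3.10.9.

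The members, lists and tests were chosen with earlier results of these data known. Named were members with a stage mean of at least 100 CPM in controls in a gate and members called in a comparison. In MOF cKO comparisons up to 3 further members with the smallest p were named, at E17.5 up to 12 members by size of the ratio besides the gene pairs and the chains of types I and III, and of the pathway lists the called genes, at most 4 per list and comparison. Members outside this rule that are named with values were chosen after their values were seen. One further cell group is not reported here.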

Additional observations from a re-analysis of the deposited data

Results flagged for a closer look

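Collagen UMIs made up 0.0977% and 0.214% of the UMIs of leukocytes in the E16.5 MOF cKO libraries (mean 0.156%), above the 0.0849% and 0.0604% of the E16.5 controls. At E15.5 the MOF cKO libraries had 0.0532% and 0.109% beside 0.0769% and 0.0542% in controls, so that the groups overlapped, and at E17.5 QPC cKO had 0.0344% beside 0.0872%. Leukocytes served as a reference and entered no comparison between genotypes, and this signal was picked out because it lies above the control level there. The difference was not tested. The 2 libraries differed from each other by more than the knockout and control libraries with the nearest values did, and the 7 endothelial markers in the leukocytes of MOF cKO replicate 1 summed to 264 CPM.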

How the results depend on the processing

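The comparison of control cell types was the most stable, with 23 to 31 members called between fibroblast and epithelial cells over all alternatives, 24 to 31 between fibroblast and endothelial cells, 18 to 30 between fibroblast and pericyte cells and 15 to 23 between endothelial and pericyte cells. Without the sample block the counts over all genes in these comparisons were 3545, 3404, 2077 and 2453 in place of 7172, 6156, 4596 and 4626. The MOF cKO counts rest on 2 libraries a group, few cells at E16.5 and the choice of tool, and the causes of the shifts below were not tested. Of the values for single members, pathway genes and counts of all genes, 1857 kept their call and direction, 101 counts moved, 61 gained and 118 lost a call, and 8 reversed. Alternatives set from the start and alternatives added after seeing the data are both included.

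Members called at E15.5 in fibroblast cells went from 0 to 5 without the count filter, to 7 with DESeq2 and to 0 to 2 when 1 sample was left out (all genes 390 and 364 in place of 0, and 0 to 100). In epithelial cells they went from 0 to 3 with DESeq2 (140 genes) and to 0 to 20 when 1 sample was left out, the 20 without MOF cKO replicate 6 (all genes 1 to 7015). In endothelial cells they went from 3 to 5 without the filter, 5 with DESeq2 and 0 with strict gates, and to 0 to 5 without 1 sample, with 0 without MOF cKO replicate 6 (all genes 10, against 71, 25, 12 and 0 to 32, and 25 with library sizes alone and 20 with thinned gates). In pericyte cells they went from 0 to 1 with library sizes alone, 7 without the filter, 2 with DESeq2 and 0 to 5 without 1 sample (all genes 6, against 21, 369, 25 and 26 to 171, 17 with thinned gates and 3 with the 5% mitochondrial limit).

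At E16.5 the fibroblast count went from 3 to 11 without the filter and 7 with DESeq2, and to 0 to 3 without 1 sample, with 0 without either control and 1 without MOF cKO replicate 1 (all genes 500, against 1783, 807 and 0 to 358, and 798 with library sizes alone). The epithelial count went from 0 to 11 without the filter, 1 with DESeq2, 1 with thinned gates, 2 with the keratin limit and 0 to 11 without 1 sample, the 11 without control replicate 2 (all genes 578, against 2007, 864, 1424, 1479 and 39 to 1112, and 316 with the 5% limit). The endothelial count went from 0 to 2 without the filter and 0 to 4 without 1 sample (all genes 298, against 615 and 343 to 475, 152 with DESeq2 and 53 with thinned gates), and the pericyte count from 0 to 1 without the filter and 1 to 2 without 1 sample (all genes 0, against 95 and 17 to 129).

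Samples of the 2 genotypes share replicate numbers at E16.5 alone. With the replicate number as a block the fit called 663 genes and 2 members in fibroblast cells, 549 and 0 in epithelial cells, 297 and 0 in endothelial cells and 0 and 0 in pericyte cells. Same-numbered samples had correlations of their deviations of -0.026, -0.017, -0.063 and -0.12, so that they did not vary together over genes. With 2 samples per genotype this does not settle whether the numbers mark pairs. The crossed pairing in pericyte cells, chosen after seeing the data, called 1 member and 59 genes. No paired analysis was possible at E15.5 because controls and MOF cKO share no replicate number.

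The interaction count in fibroblast cells went from 0 to 2 without the filter, 7 with DESeq2 and 0 to 3 without 1 sample (all genes 8, against 493, 863 and 0 to 709, 49 with library sizes alone, 26 with strict gates, 59 with thinned gates and 216 with the keratin limit). In epithelial cells it went from 0 to 8, 2 and 0 to 8 (all genes 15, against 664, 669 and 0 to 207, and 3, 42, 187, 53 and 194 with library sizes alone, strict gates, thinned gates, the 5% limit and the keratin limit). In endothelial cells it went from 0 to 2, 1 and 0 to 1 (all genes 88, against 445, 131 and 2 to 81, and 138 with strict gates), and in pericyte cells from 0 to 1 without the filter, 0 with DESeq2 and 0 to 0 without 1 sample (all genes 0, against 89, 25 and 0 to 9).

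At E17.5 the ratio of summed collagen CPM, QPC cKO over control, was 0.726 in fibroblast cells and became 0.752 with strict gates, 0.714 with thinned gates, 0.743 with the 5% limit, 0.712 over UMIs other than collagen, 0.732 without shared barcodes and 0.714 with the keratin limit. In epithelial cells it was 0.176 and became 0.308, 0.761, 0.216 and 0.172 under the first 4 and 0.710 with the keratin limit. In endothelial cells it was 1.74 and became 1.08 with strict gates, 2.41 with the 5% limit and 0.874, below 1, with thinned gates. In pericyte cells it was 1.05 and became 1.08, 1.01 and 1.13. Among called genes, 16 of 25 were higher with library sizes alone in E15.5 endothelial cells in place of 8 of 10, 25 of 49 in place of 8 of 8 in the fibroblast interaction and 54 of 89 in place of 63 of 88 in the endothelial one. Signs reversed for 5 E15.5 endothelial members with strict gates (Col1a1 -0.45, Col1a2 -0.57, Col3a1 -0.093, Col5a1 -0.15, Col6a1 -0.10), for Dcn in the same cells and setting (-1.01) and for Col3a1 in E16.5 epithelial cells (0.47 with thinned gates, 0.36 with the keratin limit).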

Other observations

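Myogenic cells, with at least 2 of Myod1, Myog, Msc, Cdh15 and Chrna1, had collagen at 0.195%, 0.239%, 0.208%, 0.247% and 0.437% of their UMIs in the controls (E15.5 replicates 2 and 3, E16.5 replicates 1 and 2, and E17.5), between leukocytes and endothelial cells in each of these libraries.

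Col23a1, a transmembrane collagen, was detected in differing shares of fibroblast cells. After thinning each cell to 5000 UMIs, 22.7%, 22%, 25.1%, 13.4% and 30% of fibroblast cells had a Col23a1 UMI in the controls, and 45.3% in QPC cKO. The E16.5 MOF cKO libraries had 7.27% and 7.68%. At E15.5 the summed fibroblast level of Col13a1, Col23a1 and Col25a1 was 71.0 and 65.9 CPM in controls. It was 47.9 and 65.5 CPM in MOF cKO replicates 5 and 6. In leukocytes thinned in the same way the share was at most 2.56% in any library. Without thinning the shares of fibroblast cells in the controls were 37.3%, 38.5%, 39.2%, 21.7% and 46.8%. Stage and chemistry cannot be told apart in these shares.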
